A study of Mus musculus with 27 samples.

Results

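Microglia, the resident macrophages of the brain, were taken from mice, grown in culture and exposed to 24(S)-saringosterol, an oxygenated sterol of plants and brown algae. The comparison uses 6 of the 27 libraries of the series, selected by the cell type and treatment named in their labels: 3 libraries of microglia given 10 µM 24(S)-saringosterol and 3 of microglia given an equal volume of ethanol as vehicle, both for 24 h. Both groups had been shaken off mixed glial cultures grown with serum. They were then treated without serum in DMEM/F12 with albumin free of fatty acids, insulin, transferrin, selenite and M-CSF, the growth factor that signals through the receptor Csf1r. The remaining libraries are microglia given 1 µM of a synthetic LXR agonist spelled in several ways in the labels and called GW here, and bone marrow-derived macrophages (BMDM) and hepatocytes given the same treatments. The sources used here give neither strain, age and sex of the mice nor whether replicates were separate animals, cultures or wells. Each p-value therefore measures the spread between libraries, which may be technical. Cells shaken off a mixed culture and kept in serum overnight before treatment are a model of microglia outside their tissue, and other glia can be carried along.

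Cells sense sterols through 2 linked systems. The liver X receptors (LXR) are nuclear receptors that bind oxidised sterols, pair with the retinoid X receptor (RXR) and raise the transcription of genes for cholesterol export, lipoprotein particles and fatty acid desaturation. The transcription factor SREBP2 works in the other direction: while sterols in the endoplasmic reticulum are plentiful, the proteins Scap and Insig hold it there, and the genes for cholesterol synthesis and for uptake of low-density lipoprotein (LDL) are transcribed less. In macrophages LXR ligands are also known to lower many inflammatory genes, and interferons are known to induce a large set of antiviral and antigen presentation genes.

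The 6 libraries held 36332542 to 41040268 counts in genes. Levels are given in CPM, counts scaled to the size of the library; a gene without counts may hold up to 3, or 0.0731 to 0.0826 CPM, a limit for counting error only. Replicates were distinct libraries: in each of the 6 pairs the chi-square of their counts was 3.77 to 9.45 times its degrees of freedom. Transcripts of the macrophage markers were abundant: the 15 genes summed to 44570, 44050 and 44290 CPM in saringosterol libraries, against 44120, 46070 and 45920 CPM in vehicle libraries (exact permutation p = 0.3, two-sided), and 2 of them were called higher and 8 lower. With 3 libraries a group such a test cannot go below 0.1. Genes that mark microglia in tissue were present at low levels, with P2ry12 at 12.7, 13.2 and 14.8 CPM in saringosterol libraries, against 10.99, 10.1 and 12.7 CPM in vehicle libraries, and Siglech under the filter on low counts. Neutrophil, lymphocyte, fibroblast and mural, ependymal and hepatocyte lists each summed to under 5 CPM in every microglia library. Neuron markers summed to 5.19, 5.10 and 6.14 CPM in saringosterol libraries, against 6.27, 5.60 and 7.66 CPM in vehicle libraries (exact permutation p = 0.2, two-sided), with none called. Border macrophage markers summed to 1327, 1354 and 1356 CPM against 1416, 1444 and 1375 CPM, led by Ms4a7, with 2 called higher and 1 lower of 8 tested, and monocyte markers to 2.80, 2.66 and 3.69 CPM against 4.81, 4.27 and 3.91 CPM, with 1 called lower of 3 (exact permutation p = 0.1 for both, two-sided). The sums of 3 lists of other brain cells were lower in saringosterol libraries, without overlap between groups (exact permutation p = 0.1 for each, two-sided). Astrocyte markers summed to 34.9, 36.9 and 30.6 CPM against 48.1, 50.8 and 48.1 CPM in vehicle libraries, with Aldh1l1 and Aldoc called lower of 8 tested. Oligodendrocyte lineage markers summed to 131, 133 and 121 CPM against 142, 141 and 156 CPM, with Olig1, Olig2, Pdgfra and Cnp called lower of 9. Endothelial markers summed to 25.3, 24.4 and 24.3 CPM against 35.4, 36.4 and 37.03 CPM, with Flt1 and Kdr called lower of 3, while Cldn5 was at 0 in all 6 libraries. The part of these cells in the results that follow was not tested, and in bulk RNA fewer cells of a type cannot be told apart from less RNA per cell. BMDM cultures given vehicle, which hold no glia by origin, summed to 37.2 to 43.6 CPM for the astrocyte list and 133 to 144 CPM for the oligodendrocyte list, and to 1.18 to 2.43 CPM for the endothelial list.

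Saringosterol changed many genes by small amounts. Of 16065 genes tested, 1743 (10.8%) were called at an edgeR adjusted p under 0.05; 673 were higher in saringosterol libraries (4.19% of those tested) and 1070 lower (6.66%). Only 38 of the higher and 71 of the lower genes differed by at least 2-fold. The median log2 fold change, always saringosterol over vehicle, was 0.26 among the higher genes, -0.31 among the lower genes and -0.003 over all genes tested. The libraries did not overlap between groups for 1711 of the called genes. A call with 3 libraries a group makes this likely, so it is no further result, and the share over all genes tested was not counted. Below, the values in parentheses and those by which a gene rose or fell are log2 fold changes with their standard errors, and called means an edgeR adjusted p under 0.05. The count of lower genes was 681 without vehicle replicate 3. A fit of all 27 libraries, in which microglia, BMDM and hepatocytes share 1 dispersion per gene, called 690 genes (357 higher and 333 lower); the cause of the smaller count was not tested.

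By size, the rises were led by genes of low level. Ccdc148, a gene for a coiled-coil protein, stood at 2.47, 2.26 and 2.81 CPM in saringosterol libraries, against 0.384, 0.616 and 0.343 CPM in vehicle libraries (chromosome 2, 58821070 to 59160683 on GRCm38), a log2 fold change of 2.48 ± 0.27 (SE; edgeR adjusted p = 9.1e-08). Dmpk, the kinase gene mutated in myotonic dystrophy, had 2.95, 2.37 and 2.46 CPM against 0.552, 0.436 and 0.713 CPM in vehicle libraries (log2 fold change 2.19 ± 0.27, adjusted p = 6.9e-07). Lipn, a lipase of the acid lipase family, had 4.79, 5.34 and 4.87 CPM against 1.80, 0.847 and 1.32 CPM (log2 fold change 1.91 ± 0.21, adjusted p = 9.9e-08). The rule that chose the largest rises and falls required groups that do not overlap, so their separation is no further result. Lbp, the plasma protein that hands bacterial lipopolysaccharide to Cd14, reached 16.5, 17.2 and 15.4 CPM, against 4.78, 4.80 and 5.92 CPM in vehicle libraries (log2 fold change 1.67 ± 0.10, adjusted p = 1.5e-13). Card14, an activator of NF-kappaB signalling, Smc1b, a cohesin subunit of germ cells, the small GTPase gene Rasd2 and Slc2a4, the insulin-responsive glucose transporter, rose by 1.92, 1.78, 1.596 and 1.58 on the log2 scale, each with under 1 CPM on average in vehicle libraries. Eepd1, an LXR-responsive nuclease gene tied to cholesterol export in macrophages, had 134, 132 and 120.3 CPM against 57.6, 59.8 and 57.4 CPM (log2 fold change 1.14 ± 0.05, adjusted p = 1.5e-17) and was among the 6 rises with the smallest p. Il1a, Abca1, Scd2, Abcg1 and Pltp, described with their groups, complete the genes with the largest or most certain rises. The 10 largest falls included Apol9b, an apolipoprotein L gene, at 0.218, 0.266 and 0.482 CPM against 0.768, 1.21 and 1.53 CPM; Asb2, a ubiquitin ligase subunit, at 0.338, 0.372 and 0.294 CPM against 1.01, 1.05 and 1.16 CPM; and Gpr18, a lipid receptor, at 0.363, 1.06 and 0.589 CPM against 1.58, 2.33 and 1.88 CPM in vehicle libraries. Shisal1, which encodes a membrane protein of the shisa-like family, fell by 1.56 ± 0.33 on the log2 scale and Ifit1bl1, a relative of Ifit1, by 1.53 ± 0.19; Il1b, Nos2, Ms4a4c and Cx3cr1, also among the 10, are described with their groups.

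LXR targets rose almost without exception. Of 15 tested members of the list, 14 were called higher and 1 lower, with a median log2 fold change of 0.70, beside -0.003 over all genes tested. Every member's 3 saringosterol libraries lay apart from its 3 vehicle libraries. All members were called, which makes this likely, so the separation is no further result. The share of such genes over all genes tested was not counted. Groups also lay apart in 17 of 36 lysosomal genes, a list with 29 members not called. The cholesterol exporter Abca1 (ENSMUSG00000015243, GRCm38 chromosome 4, 53030787 to 53159895, minus strand) stood at 2260, 2355 and 2160 CPM in saringosterol libraries, against 705, 689 and 678 CPM in vehicle libraries, a log2 fold change of 1.71 ± 0.04 (edgeR adjusted p = 5.5e-25). Its partner Abcg1, which loads sterol onto mature high-density particles, had 659, 663 and 632 CPM, against 319, 338 and 339 CPM in vehicle libraries (log2 fold change 0.97 ± 0.04, adjusted p = 3.9e-18). In Abca1 the lowest saringosterol library held about 3 times the CPM of the highest vehicle library. Genes for the particles that receive the lipid moved with the exporters. Apoc1, a small apolipoprotein, had 21.5, 21.5 and 24.4 CPM against 7.13, 8.21 and 8.11 CPM (log2 fold change 1.52 ± 0.08). Pltp, which transfers phospholipid between lipoproteins, had 306, 305 and 288 CPM against 141, 149 and 152 CPM (log2 fold change 1.02 ± 0.04), and Lpl, the lipase that frees fatty acids from lipoproteins, had 5547, 5479 and 5603 CPM against 4705, 4824 and 4727 CPM in vehicle libraries, a smaller rise of 0.22 ± 0.03. Mylip, a ubiquitin ligase that lowers lipoprotein uptake, rose by 0.96 ± 0.05 on the log2 scale, with 88.5, 88.04 and 89.3 CPM against 44.8, 47.2 and 44.4 CPM. The phospholipid acyltransferase Lpcat3 rose by 0.34 ± 0.04 on the log2 scale, the small GTPase gene Arl4c by 0.54 ± 0.05 and the receptor for dying cells Mertk by 0.58 ± 0.04. The exception was Smpdl3a, a phosphodiesterase described as an LXR target in human macrophages, with 320.2, 299 and 299 CPM in saringosterol libraries, against 339.6, 342 and 363 CPM in vehicle libraries (log2 fold change -0.18 ± 0.04, adjusted p = 0.0012). The count of higher members was 14 without each of the 6 libraries in turn and 13 in the fit of all 27 libraries.

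The receptors themselves changed little. Nr1h3, which encodes LXR alpha and is its own target, had 26.7, 26.2 and 25.6 CPM against 19.5, 22.3 and 19.5 CPM in vehicle libraries (log2 fold change 0.35 ± 0.08, adjusted p = 0.0021), while Nr1h2, which encodes LXR beta, had 111, 110.0 and 105 CPM against 117, 118 and 118 CPM (-0.11 ± 0.04, adjusted p = 0.087). The partner receptor Rxrb fell by 0.32 ± 0.06 and the coactivator Ncoa1 by 0.25 ± 0.05 on the log2 scale; the corepressor Ncor1 stood at -0.05 and was not called. In all, 1 of 11 tested receptors and cofactors rose and 2 fell. Among 20 tested genes of the ABC transporter family, 7 rose and 3 fell (median 0.09). Beyond Abca1 and Abcg1 these were the organic anion exporter Abcc3, with 146, 145 and 129 CPM against 84.2, 81.05 and 85.97 CPM (log2 fold change 0.74 ± 0.05), the peroxisomal fatty acid transporter Abcd2 (0.67 ± 0.05), the phospholipid transporter Abcb4 (0.56 ± 0.08), Abcg3 (0.88 ± 0.15) and Abcc5 (0.25 ± 0.06). Abca9 fell by 0.33 ± 0.05 on the log2 scale. The count of 3 lower members was 1 without saringosterol replicate 3, vehicle replicate 2 or vehicle replicate 3.

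**Figure D1:**
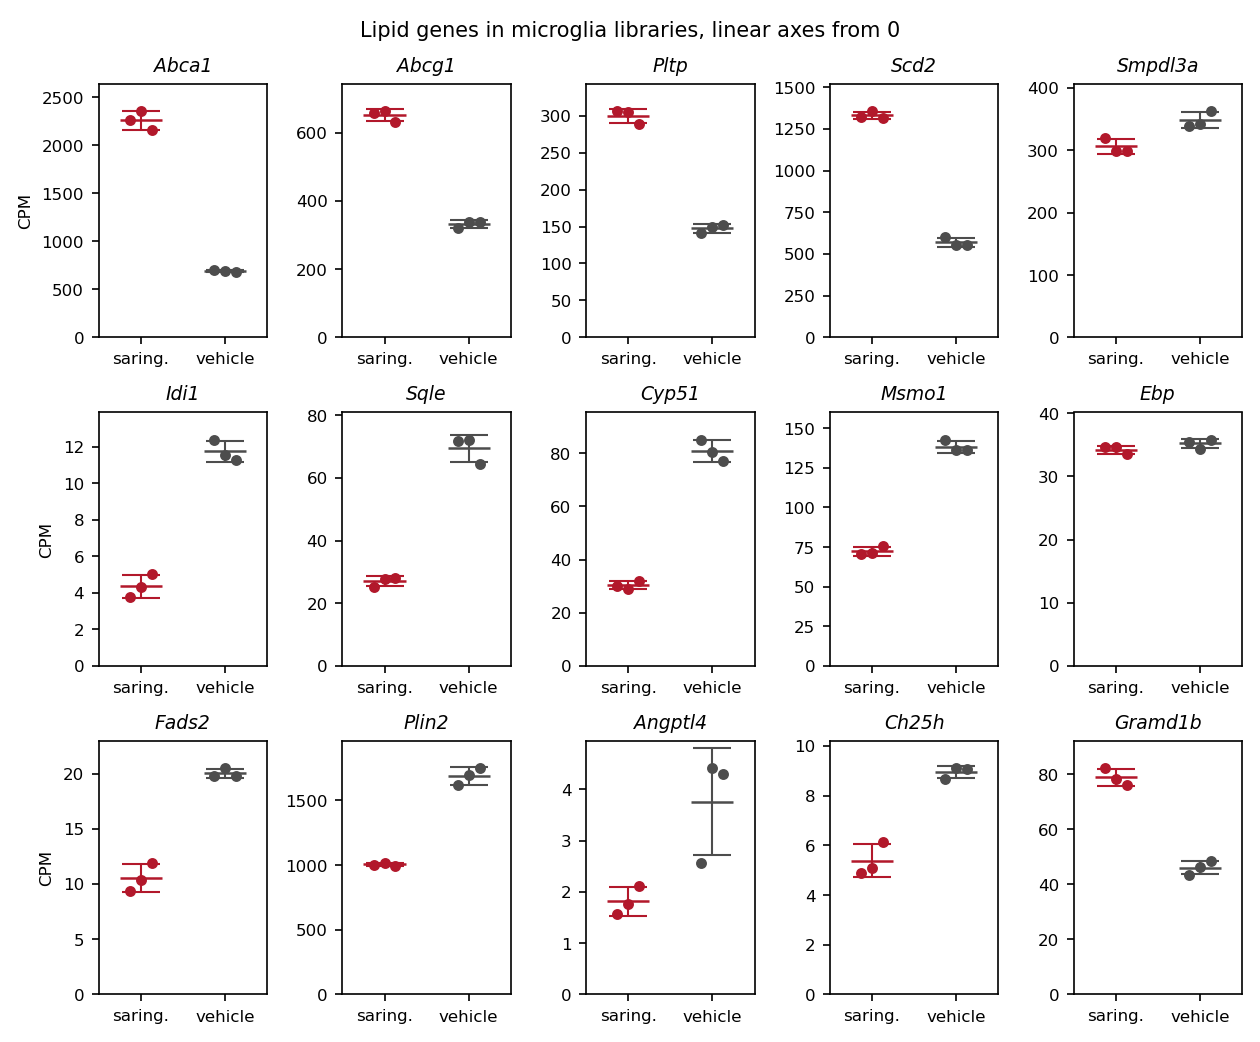
Levels of 15 lipid genes in each microglia library, in CPM on linear axes that start at 0; points are the 3 saringosterol (red) and 3 vehicle (grey) libraries, long bars the mean and short bars 1 SD. The exporters Abca1 and Abcg1 are higher in saringosterol libraries, cholesterol synthesis genes such as Cyp51, Sqle and Msmo1 are lower, and Ebp overlaps between groups.

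Promoters of the LXR targets were read for the letters of an LXR element, a direct repeat of half-sites. The search used the half-site NGGTNA, any 4 bases and NGGTNA again, on both strands, from 250 bases before to 50 after the RefSeq start sites of GRCm38.p6. The letters were loosened so as to hold the element known from Abca1, so its match is not a finding. They were found in 2 of the 9 list members with a promoter in the table, Abca1 and Srebf1, and in 0.718% of all 32851 promoters (in any promoter of 0.818% of the 27025 genes in the table). The promoters of these genes are shown because the exporter and the lipid synthesis regulator carry the same arrangement of half-sites; they lie at chr4:53159846-53160145 on the minus strand and chr11:60210422-60210721 on the minus strand, with the match in capitals starting at -67 and -182 from the start site.
Abca1: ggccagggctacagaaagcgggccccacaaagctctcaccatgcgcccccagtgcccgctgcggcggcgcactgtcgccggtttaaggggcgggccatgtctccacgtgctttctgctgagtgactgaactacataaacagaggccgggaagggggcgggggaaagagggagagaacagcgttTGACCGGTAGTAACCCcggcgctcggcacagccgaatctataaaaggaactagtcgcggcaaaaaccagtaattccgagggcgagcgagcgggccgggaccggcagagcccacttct
Srebf1: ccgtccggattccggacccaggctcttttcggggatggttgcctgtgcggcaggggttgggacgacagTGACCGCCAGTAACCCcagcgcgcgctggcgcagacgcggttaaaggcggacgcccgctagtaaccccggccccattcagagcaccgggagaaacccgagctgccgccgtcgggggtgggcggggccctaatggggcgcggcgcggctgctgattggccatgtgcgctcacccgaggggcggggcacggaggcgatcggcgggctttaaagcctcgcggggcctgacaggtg
A match describes letters in this window and does not show that LXR binds there.

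Cholesterol synthesis fell along nearly the whole pathway. Of 20 tested enzymes 19 were called lower and none higher, with a median log2 fold change of -0.84. In the early steps, Hmgcs1, which makes HMG-CoA, had 44.5, 44.5 and 44.8 CPM in saringosterol libraries, against 81.6, 83.4 and 72.7 CPM in vehicle libraries (log2 fold change -0.83 ± 0.06). The kinases Mvk and Pmvk of the mevalonate steps fell by 0.52 ± 0.10 and 0.39 ± 0.09, and the isomerase Idi1 had 3.77, 4.30 and 5.03 CPM against 12.4, 11.6 and 11.3 CPM (log2 fold change -1.43 ± 0.11). At the entry to sterols, Fdft1, which makes squalene, had 8.46, 6.01 and 7.10 CPM against 20.3, 19.3 and 21.2 CPM (log2 fold change -1.49 ± 0.10), and Sqle, which oxidises it, had 25.2, 27.9 and 28.1 CPM against 71.8, 72.2 and 64.5 CPM in vehicle libraries (-1.36 ± 0.06, edgeR adjusted p = 1e-16). The cyclase Lss fell by 0.84 ± 0.06 on the log2 scale. Cyp51, the lanosterol demethylase (ENSMUSG00000001467, GRCm38 chromosome 5, 4081145 to 4104746, minus strand), had 30.2, 28.8 and 31.8 CPM against 85.1, 80.6 and 77.0 CPM (log2 fold change -1.42 ± 0.06, adjusted p = 1.6e-17). Msmo1, the next demethylase, had 70.3, 71.1 and 75.5 CPM against 143, 136 and 136 CPM (log2 fold change -0.94 ± 0.04). Dhcr7, which makes cholesterol in the last step of one branch, fell by only 0.34 ± 0.05, and Nsdhl by 0.29 ± 0.07. For the sterol isomerase Ebp, the exception, 34.6, 34.6 and 33.5 CPM stood against 35.5, 34.4 and 35.8 CPM in vehicle libraries (log2 fold change -0.04 ± 0.06, adjusted p = 0.76), and the groups overlapped. The count of lower enzymes was 19 without each library in turn and 17 in the fit of all 27 libraries.

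The promoters of 15 of these genes were in the RefSeq table. The classical sterol regulatory element, searched as TCACNCCAC on both strands, was found in 1 of them, Hmgcs1, and in 1.24% of all promoters (1.44% of genes). Only these letters in this window were searched, so a missing match does not show that a gene lacks such an element. The CCAAT box, the site of the factor NF-Y that works beside SREBP, was found as CCAAT on either strand in 14 of the 15 genes (93.3%), against 41.1% of all genes in the table (37.4% of promoters). It was found in 11 of the 28 interferon-stimulated genes (39.3%) and in 5 of the 9 LXR targets (55.6%) with a promoter in the table. Ebp, which was not called, also carries these letters. The promoter of Hmgcs1 at chr13:119690101-119690400 on the plus strand is shown with its sterol regulatory element in capitals, starting at -137, and that of Cyp51 at chr5:4104648-4104947 on the minus strand with its CCAAT box in capitals, starting at -29.
Hmgcs1: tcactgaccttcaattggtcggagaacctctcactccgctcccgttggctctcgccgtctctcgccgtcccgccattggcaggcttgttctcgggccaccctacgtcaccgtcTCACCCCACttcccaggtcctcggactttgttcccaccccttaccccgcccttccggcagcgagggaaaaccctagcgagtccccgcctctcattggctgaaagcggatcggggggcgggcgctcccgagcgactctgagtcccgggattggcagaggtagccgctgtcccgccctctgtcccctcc
Cyp51: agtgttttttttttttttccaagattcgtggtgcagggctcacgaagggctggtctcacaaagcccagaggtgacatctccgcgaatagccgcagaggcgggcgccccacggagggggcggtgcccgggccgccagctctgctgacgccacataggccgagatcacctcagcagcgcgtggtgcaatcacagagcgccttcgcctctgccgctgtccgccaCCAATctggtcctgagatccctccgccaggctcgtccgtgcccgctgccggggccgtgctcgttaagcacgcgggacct

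Genes of the sterol sensor changed with synthesis in part. Srebf2, which encodes SREBP2, had 79.4, 74.04 and 67.05 CPM in saringosterol libraries, against 120.4, 121 and 124 CPM in vehicle libraries (log2 fold change -0.72 ± 0.05, edgeR adjusted p = 3.3e-12), and Insig1, the retention protein that SREBP itself induces, had 40.4, 37.98 and 39.6 CPM against 59.9, 58.9 and 63.9 CPM (-0.63 ± 0.05). In neither gene did the groups overlap. The escort Scap (log2 fold change -0.12), the second retention gene Insig2 (-0.04) and the proteases Mbtps1 (-0.01) and Mbtps2 (0.20), which cut SREBP free, were not called. Of the 11 tested genes of lipoprotein uptake and the sterol sensor 4 fell and 1, Mylip, rose. Among 21 tested genes of sterol transport and oxysterols 3 rose and 4 fell. Gramd1b, which carries sterol from the plasma membrane to the endoplasmic reticulum, had 82.1, 78.2 and 76.0 CPM against 43.5, 46.4 and 48.3 CPM (log2 fold change 0.78 ± 0.05, adjusted p = 4.2e-12). Stard4, a soluble sterol carrier under SREBP2, fell by 0.94 ± 0.10 on the log2 scale. Ch25h, which makes the LXR ligand 25-hydroxycholesterol and is interferon-inducible, had 4.88, 5.10 and 6.13 CPM against 8.69, 9.11 and 9.09 CPM in vehicle libraries (log2 fold change -0.74 ± 0.14). The lysosomal lipase Lipa, at -0.01, was not called. The lysosomal exporter Npc1 and the esterifying enzyme Soat1 rose by 0.17 ± 0.05 and 0.12 ± 0.03 on the log2 scale; the call of Npc1 was lost without saringosterol replicate 1 or 2 or vehicle replicate 1 or 2 (edgeR adjusted p = 0.085 to 0.17), and that of Soat1 without saringosterol replicate 1 or vehicle replicate 2 (0.055 and 0.063).

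Fatty acid synthesis genes moved in both directions. Of 20 tested synthesis genes 9 rose and 5 fell (median 0.13). The desaturases that put the first double bond into saturated chains rose: Scd2 had 1323, 1356 and 1313 CPM in saringosterol libraries, against 601, 552 and 555 CPM in vehicle libraries (log2 fold change 1.23 ± 0.04, edgeR adjusted p = 6.1e-21), and Scd1 and Scd3 rose by 1.42 ± 0.08 and 1.10 ± 0.13. Srebf1, the regulator of fatty acid synthesis, had 152, 146 and 136 CPM against 88.6, 89.8 and 89.5 CPM (log2 fold change 0.70 ± 0.04). Of the elongases, Elovl5, which extends polyunsaturated chains, rose by 0.41 ± 0.04 on the log2 scale and Elovl1, which extends long saturated ones, fell by 0.13 ± 0.04. The synthase Fasn rose by 0.46 ± 0.04 on the log2 scale. The desaturases of polyunsaturated chains fell, with Fads2 at 9.40, 10.4 and 11.9 CPM against 19.8, 20.5 and 19.8 CPM (log2 fold change -0.93 ± 0.07) and Fads1 lower by 0.26. The enzymes that make acetyl-CoA in the cytosol also fell, Acss2 by 0.53 ± 0.08 and Acly by 0.20 ± 0.04. The Scd genes resemble each other, and the counting of reads that fit several genes is not given, so their single values are uncertain.

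Most genes for the storage and burning of fat were not called, and of those called more fell than rose. Plin2, the coat protein of lipid droplets, had 1004, 1018 and 995 CPM in saringosterol libraries, against 1616, 1699 and 1749 CPM in vehicle libraries (log2 fold change -0.75 ± 0.03, edgeR adjusted p = 1.4e-16), while the other coat gene tested, Plin3, stood at 0.01 and was not called. Of 17 tested droplet and lipase genes 4 fell and 1 rose: the triglyceride lipase Pnpla2 fell by 0.25 ± 0.05 on the log2 scale, and the monoglyceride lipase Mgll rose by 0.22 ± 0.05. Of 17 genes of fatty acid oxidation and other targets of the PPAR receptors 4 fell and 2 rose. Angptl4, a secreted lipase inhibitor, had 1.57, 1.75 and 2.12 CPM against 2.57, 4.41 and 4.30 CPM (log2 fold change -1.05 ± 0.19), and Cpt1a, the gate of mitochondrial oxidation, had 90.1, 83.7 and 81.9 CPM against 118, 114 and 123 CPM (-0.47 ± 0.04). The fatty acid transporter Cd36 rose by 0.19 ± 0.04 on the log2 scale. Among 20 phospholipid genes 3 rose, Lpcat1 and Lpcat3 of the acyltransferases and Pla2g15, and 4 fell.

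Interferon-stimulated genes fell as a group. Of 40 tested genes of the list 39 were called lower, and the median log2 fold change was -0.64. All 40 had lower values in every saringosterol library than in any vehicle library. For the 39 called genes a call makes this likely, so it is no further result. The share of such genes over all genes tested was not counted. Groups that do not overlap were also common elsewhere, as in 24 of 35 cell cycle genes, a list with 22 members not called. Among the regulators, Irf7, the factor that amplifies type I interferon, had 221, 216 and 206 CPM in saringosterol libraries, against 402, 447 and 527 CPM in vehicle libraries (log2 fold change -1.10 ± 0.11, edgeR adjusted p = 0.00075). Irf9, part of a factor downstream of the interferon receptors, fell by 0.32 ± 0.05 on the log2 scale. Among the effectors, the RNA binder Ifit1 had 35.9, 36.8 and 38.4 CPM against 70.3, 81.9 and 76.5 CPM (log2 fold change -1.04 ± 0.10), and Isg15, a ubiquitin-like modifier, had 37.4, 40.1 and 37.8 CPM against 67.5, 78.6 and 76.8 CPM (-0.95 ± 0.10). Rsad2, which encodes viperin, had 139.7, 161 and 147 CPM against 228, 249 and 241 CPM (log2 fold change -0.68 ± 0.13), a call lost without saringosterol replicate 1 or 3 or vehicle replicate 2 or 3 (edgeR adjusted p = 0.059 to 0.068). In these genes every saringosterol library was below every vehicle library. Ifi27l2a had the smallest p of the list, with 102, 97.1 and 104 CPM against 161, 182 and 178 CPM (log2 fold change -0.78 ± 0.05, adjusted p = 2.9e-13), and the 2 largest falls were those of Ifi44 (-1.26 ± 0.12) and Oasl1 (-1.22 ± 0.10). Parp14, a mono-ADP-ribosyltransferase, was not called, with 148, 156 and 138 CPM against 222, 177 and 188 CPM in vehicle libraries (log2 fold change -0.41 ± 0.11, adjusted p = 0.055), although it was called lower without vehicle replicate 1 or 2 (adjusted p = 0.017 and 0.019). By library, the median of the 40 genes relative to the vehicle mean was -0.64, -0.65 and -0.65 in saringosterol libraries, against -0.10, 0.02 and 0.05 in vehicle libraries. Between 34 and 39 members were called lower without each library in turn. In the fit of all 27 libraries the median was -0.64 and 3 members were called lower.

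The core of the interferon-stimulated response element was searched as GAAA, any 2 bases and GAAA again, on both strands. It was found in 14 of the 28 list members with a promoter in the RefSeq table, against 3.99% of all genes in the table (3.44% of promoters), in 1 of 15 cholesterol synthesis genes and in none of 9 LXR targets. The promoters of Ifit1 (chr19:34640639-34640938 on the plus strand), Isg15 (chr4:156200769-156201068 on the minus strand) and Rsad2 (chr12:26456403-26456702 on the minus strand) are shown as 3 members that fell and whose promoters hold these letters, with all matches in capitals; the first starts at -104, -78 and -120 from the start site in that order. Ifit1 holds 2 separate matches, and the capitals in Isg15 hold 3 that overlap.
Ifit1: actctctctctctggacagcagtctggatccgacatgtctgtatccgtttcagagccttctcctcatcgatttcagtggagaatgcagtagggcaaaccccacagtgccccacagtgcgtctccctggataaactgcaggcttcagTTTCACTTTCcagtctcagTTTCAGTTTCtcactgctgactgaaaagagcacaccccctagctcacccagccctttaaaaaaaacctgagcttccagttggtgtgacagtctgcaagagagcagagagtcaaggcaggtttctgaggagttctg
Isg15: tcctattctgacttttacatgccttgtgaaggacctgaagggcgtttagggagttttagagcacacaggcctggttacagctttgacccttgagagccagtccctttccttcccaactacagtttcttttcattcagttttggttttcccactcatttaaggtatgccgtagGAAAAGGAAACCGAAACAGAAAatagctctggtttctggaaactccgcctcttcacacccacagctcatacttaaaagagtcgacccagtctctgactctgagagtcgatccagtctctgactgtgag
Rsad2: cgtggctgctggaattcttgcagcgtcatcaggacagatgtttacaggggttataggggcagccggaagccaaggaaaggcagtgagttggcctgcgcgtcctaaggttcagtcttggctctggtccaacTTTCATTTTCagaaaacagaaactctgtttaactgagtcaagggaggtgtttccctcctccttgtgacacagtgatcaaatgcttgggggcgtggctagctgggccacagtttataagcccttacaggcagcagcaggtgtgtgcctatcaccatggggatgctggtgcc

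**Figure D2:**
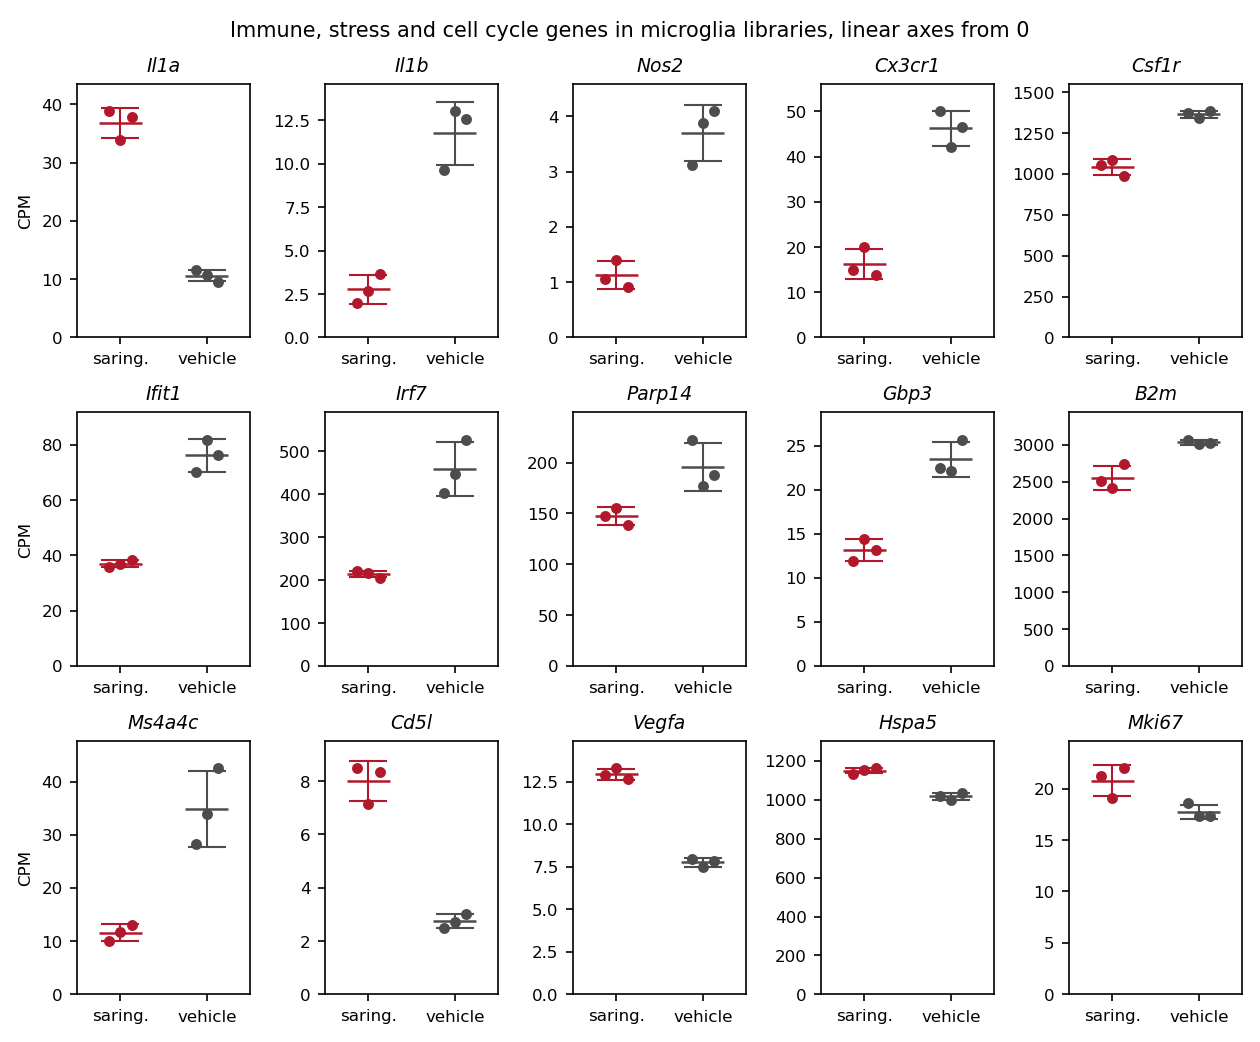
Levels of 15 immune, stress and cell cycle genes in each microglia library, in CPM on linear axes that start at 0; points are the 3 saringosterol (red) and 3 vehicle (grey) libraries, long bars the mean and short bars 1 SD. Il1a, Cd5l, Vegfa and Hspa5 are higher in saringosterol libraries and Il1b, Cx3cr1, Ifit1 and Ms4a4c lower; Parp14 and Mki67 do not overlap but were not called.

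Genes that interferon gamma is best known to induce fell with them. Of 18 tested guanylate-binding proteins, immunity-related GTPases and related genes, 14 fell and none rose (median -0.63). Gbp3 had 11.9, 14.4 and 13.2 CPM in saringosterol libraries, against 22.5, 22.1 and 25.7 CPM in vehicle libraries (log2 fold change -0.83 ± 0.12), and Gbp2, another GTPase that attacks vacuoles of pathogens, had 29.6, 28.5 and 29.0 CPM against 46.2, 47.8 and 51.1 CPM (-0.74 ± 0.06). Irgm1 and Igtp fell by 0.52 ± 0.06 and 0.68 ± 0.07 on the log2 scale. The class II regulator Ciita (log2 fold change 0.00) and the feedback inhibitor Socs1 (-0.15) were not called. The machinery that loads peptides on MHC class I fell in nearly every part, with 14 of 15 genes lower, none higher and a median of -0.34. The heavy chains H2-K1 and H2-D1 fell by 0.39 ± 0.04 and 0.29 ± 0.05, and B2m, their shared light chain, had 2511, 2416 and 2734 CPM against 3071, 3015 and 3021 CPM in vehicle libraries (log2 fold change -0.25 ± 0.04, edgeR adjusted p = 7e-06). The peptide pump subunit Tap1 fell by 0.62 ± 0.07 on the log2 scale, the loading chaperone Tapbp by 0.40 ± 0.03 and the immunoproteasome subunit Psmb9 by 0.51 ± 0.06; the trimming peptidase Erap1 was at -0.10 and not called. By library the MHC class I median was -0.27, -0.33 and -0.39 in saringosterol libraries, against -0.08, 0.003 and 0.06 in vehicle libraries. Without each library in turn both lists had between 12 and 14 lower members, while the fit of all 27 libraries called 0 of the GTPase list (median -0.62) and 2 of the class I list (median -0.33). Genes of the H2, Gbp, Ifit and Oas families have close relatives, so single values are uncertain.

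The receptors and sensors above these genes moved less. Of 18 tested interferon ligands, receptors and sensors 5 fell and 1 rose (median -0.01), and Ifnb1 did not pass the filter on low counts. The receptor genes Ifnar1 (log2 fold change 0.04), Ifnar2 (0.10) and Ifngr2 (0.04), the kinase Tbk1 (0.05) and the factor Irf3 (0.06) were not called. Ikbke, an inducible kinase of the same pathway, fell by 0.28 ± 0.06 on the log2 scale, and Mavs, the mitochondrial adaptor of RNA sensing, rose by 0.23 ± 0.06, a call that was lost without saringosterol replicate 1 (edgeR adjusted p = 0.052). Without saringosterol replicate 3 or vehicle replicate 3 only 2 of the 5 falls were called, and 3 without saringosterol replicate 2 or vehicle replicate 1. Of 12 genes of MHC class II and costimulation 4 fell and none rose, and this count was 1, 2, 0 and 1 without saringosterol replicate 1, saringosterol replicate 2, vehicle replicate 2 and vehicle replicate 3. The class II chains H2-Aa (log2 fold change 0.08) and H2-Ab1 (0.07) were not called.

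The Ms4a family, membrane proteins of myeloid cells encoded in a cluster on chromosome 19, was also lower. Of 8 tested members 7 fell and none rose (median -0.59). Ms4a4c (ENSMUSG00000024675, GRCm38 chromosome 19, 11404770 to 11427246, plus strand) had 10.01, 11.8 and 13.1 CPM in saringosterol libraries, against 28.2, 33.9 and 42.5 CPM in vehicle libraries (log2 fold change -1.58 ± 0.17, edgeR adjusted p = 0.00011). Ms4a6b had 50.3, 53.02 and 57.1 CPM against 101, 100.5 and 104 CPM (log2 fold change -0.93 ± 0.06), and Ms4a7 had 579, 564 and 599 CPM against 723, 756 and 722 CPM (-0.34 ± 0.04). Ms4a6d, at a locus tied to Alzheimer disease in humans, fell by 0.43 ± 0.04 on the log2 scale. Ms4a4b, at -0.90, was not called. There were 7 calls without each library in turn and 1 in the fit of all 27 libraries.

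Interleukin-1 genes moved in opposite directions. Il1a, an alarmin kept inside the cell, had 38.8, 33.9 and 37.8 CPM in saringosterol libraries, against 11.5, 10.7 and 9.59 CPM in vehicle libraries (log2 fold change 1.80 ± 0.08, edgeR adjusted p = 2.4e-16). Il1b, its neighbour on chromosome 2 that needs the inflammasome for release, had 1.96, 2.66 and 3.67 CPM against 9.65, 13.03 and 12.6 CPM (log2 fold change -2.09 ± 0.17, adjusted p = 7.8e-10), the largest fall of the comparison by the rule for named genes. Il18bp, the secreted decoy for interleukin-18, rose by 0.62 ± 0.09 on the log2 scale, while Casp1 and Gsdmd, which process and release the cytokine, fell by 0.19 ± 0.04 and 0.26 ± 0.05. The sensor Nlrp3 (log2 fold change -0.10), the receptor antagonist Il1rn (-0.04) and Il18 (-0.06) were not called. Of 19 tested genes of this family 2 rose and 4 fell. Among 23 cytokines and inflammatory enzymes 1 rose and 6 fell, or 3 without saringosterol replicate 2. The inducible nitric oxide synthase Nos2 had 1.06, 1.41 and 0.910 CPM against 3.12, 3.87 and 4.09 CPM in vehicle libraries (log2 fold change -1.71 ± 0.25), and Acod1, which makes itaconate, fell by 0.34 ± 0.05. Arg2, a mitochondrial arginase, rose by 0.77 ± 0.12 on the log2 scale. Tnf, with 19.3, 18.6 and 22.04 CPM against 19.99, 22.8 and 19.6 CPM in vehicle libraries, overlapped between groups. Of 21 chemokines 18 were not called; Ccl2 and Ccl3 rose by 0.47 ± 0.05 and 0.39 ± 0.06, and Ccl5 stood at 19.9, 27.1 and 32.9 CPM against 47.6, 55.3 and 69.6 CPM (log2 fold change -1.11 ± 0.22, adjusted p = 0.024), a call lost without saringosterol replicate 2, vehicle replicate 2 or vehicle replicate 3 (adjusted p = 0.055 to 0.079).

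Many receptors that guide and arm microglia fell. Cx3cr1, the receptor for the neuronal chemokine fractalkine, had 14.8, 19.96 and 13.8 CPM in saringosterol libraries, against 50.05, 42.2 and 46.5 CPM in vehicle libraries (log2 fold change -1.51 ± 0.12, edgeR adjusted p = 3e-06). The receptors for formyl peptides and platelet-activating factor, Fpr1 and Ptafr, fell by 0.62 ± 0.07 and 0.43 ± 0.04, and Ccr1 by 0.33 ± 0.04, while C5ar1 (log2 fold change 0.01) and Cxcr4 (0.13) were not called. Of 16 tested chemoattractant receptors 9 fell and none rose (median -0.22). Of 17 lectins and Siglecs, receptors for sugars, 10 fell and 2 rose (median -0.23). The inhibitory Siglece had 0.967, 1.89 and 0.964 CPM against 3.14, 3.05 and 3.30 CPM (log2 fold change -1.32 ± 0.25), Clec4a1 fell by 0.85 ± 0.07, the mannose receptor Clec4n by 0.38 ± 0.04 and the glucan receptor Clec7a by 0.23 ± 0.04. The high-affinity Fc receptor Fcgr1 had 136, 131 and 132 CPM against 188, 218 and 237 CPM in vehicle libraries (log2 fold change -0.69 ± 0.07). In the fit of all 27 libraries 2 chemoattractant receptors and 2 lectins were called lower.

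Receptors for lipids, debris and dying cells included genes that rose. Of 13 tested scavenger receptors 7 rose and 2 fell (median 0.16). Cd5l, a secreted scavenger protein of macrophages, had 8.48, 7.12 and 8.35 CPM in saringosterol libraries, against 2.496, 2.72 and 3.01 CPM in vehicle libraries (log2 fold change 1.54 ± 0.13, edgeR adjusted p = 4e-10). The endocytic receptor Lrp1 rose by 0.32 ± 0.04 on the log2 scale, Marco by 0.27 ± 0.04 and Msr1 by 0.21 ± 0.03; Scarb1, a receptor for high-density lipoprotein, fell by 0.31 ± 0.04. In the fit of all 27 libraries 2 of the 7 rises were called. Among efferocytosis genes, Mertk and its bridging ligands Pros1 and Gas6 rose by 0.58 ± 0.04, 0.34 ± 0.04 and 0.23 ± 0.04 on the log2 scale, and the phosphatidylserine receptor Timd4 by 0.80 ± 0.18. The related kinase Axl fell by 0.18 ± 0.04 on the log2 scale, a call lost without vehicle replicate 3 (edgeR adjusted p = 0.056). Of 20 genes of this list 6 rose and 6 fell, and Trem2 (log2 fold change 0.06) and its adaptor Tyrobp (0.00) were not called. Of 18 complement genes 3 rose, among them C1qb by 0.29 ± 0.04 and properdin, Cfp, by 0.31 ± 0.04, and 6 fell, among them C3 by 0.31 ± 0.05 and the complement receptor chain Itgb2 by 0.26 ± 0.03.

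Identity genes of microglia moved unevenly. Of 21 tested homeostatic genes 8 fell and 2 rose (median -0.14); 3 were called lower in the fit of all 27 libraries. Fcrls had 42.1, 44.6 and 44.6 CPM in saringosterol libraries, against 64.9, 69.1 and 70.5 CPM in vehicle libraries (log2 fold change -0.64 ± 0.05), and Csf1r, the receptor for the M-CSF in the medium, had 1053, 1085 and 988 CPM against 1370, 1343 and 1384 CPM (-0.39 ± 0.04, edgeR adjusted p = 1.3e-09). P2ry13, a nucleotide receptor, rose by 0.30 ± 0.06 on the log2 scale, and Sall1, at 0.29, was not called. Genes of disease-associated microglia were mostly not called, with 3 higher, 3 lower and 16 of 22 not called (median 0.02), and 1 of the 3 falls was called without vehicle replicate 3 and 0 in the fit of all 27 libraries; Spp1, Gpnmb and Cst7 stood at -0.07, 0.03 and -0.11. Of 26 genes at human Alzheimer disease loci, a list that also holds Apoe and Abca1, 4 rose and 8 fell. Without saringosterol replicate 2 only 2 rises were called, and without vehicle replicate 3 only 4 falls. The kinase Ptk2b fell by 0.27 ± 0.04 on the log2 scale and the myeloid factor Spi1 by 0.21 ± 0.04. Of 16 tested growth factors 4 rose and none fell. Vegfa, which drives vessel growth, had 12.9, 13.3 and 12.7 CPM against 7.95, 7.49 and 7.87 CPM in vehicle libraries (log2 fold change 0.74 ± 0.11), Hbegf rose by 0.76 ± 0.10, the Notch ligand Jag1 by 0.35 ± 0.07 and Igf1 by 0.20 ± 0.04.

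Chaperones of the endoplasmic reticulum rose by small amounts, and no gene of the amino acid response did. Of 21 tested genes of endoplasmic reticulum stress 13 rose and none fell (median 0.15), and 11 to 13 were called higher without each library in turn. Hsp90b1, a chaperone of membrane receptors, had 518, 519 and 552 CPM in saringosterol libraries, against 419, 416 and 410.5 CPM in vehicle libraries (log2 fold change 0.35 ± 0.04). Hspa5, the main folding chaperone and stress sensor, had 1134, 1150 and 1162 CPM against 1017, 1001 and 1033 CPM (log2 fold change 0.17 ± 0.03, edgeR adjusted p = 0.00024). The calcium-binding chaperone Calr rose by 0.26 ± 0.03 on the log2 scale and the disulfide isomerase Pdia6 by 0.31 ± 0.04. The signalling genes Xbp1 (log2 fold change 0.04), Atf6 (-0.11) and Ern1 (-0.10) and the degradation gene Herpud1 (0.06) were not called. Of 21 genes of the amino acid response none rose and 7 fell (median -0.15). Trib3, a pseudokinase induced by Atf4, had 35.1, 30.9 and 37.8 CPM against 49.9, 48.8 and 53.1 CPM in vehicle libraries (log2 fold change -0.55 ± 0.07), Ddit3, the stress factor CHOP, fell by 0.45 ± 0.07 and Asns, asparagine synthetase, by 0.25 ± 0.05; Atf4 itself stood at -0.14 and was not called, except without vehicle replicate 1 (adjusted p = 0.029).

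A minority of the cell cycle genes was called higher, by small amounts. Of 35 tested members 11 were called higher and 2 lower, with a median of 0.25. Ccnb1, the cyclin of mitosis, had 15.5, 14.1 and 14.1 CPM in saringosterol libraries, against 9.72, 10.2 and 11.3 CPM in vehicle libraries (log2 fold change 0.49 ± 0.11, edgeR adjusted p = 0.0022). The helicase subunit Mcm2 rose by 0.41 ± 0.07 on the log2 scale, the ribonucleotide reductase subunit Rrm2 by 0.42 ± 0.09 and the topoisomerase Top2a by 0.41 ± 0.08, while Ccnd2, a cyclin of early G1, fell by 0.44 ± 0.07. Mki67, the common proliferation marker, had 21.2, 19.1 and 21.98 CPM against 18.6, 17.3 and 17.4 CPM in vehicle libraries and was not called (log2 fold change 0.23 ± 0.09, adjusted p = 0.089). The count of 11 was 6 without vehicle replicate 1, 7 without vehicle replicate 2 or any saringosterol replicate, and 2 in the fit of all 27 libraries. Of 77 tested ribosomal protein genes 17 rose and none fell (median 0.12), and none of the 13 genes of the mitochondrial genome was called at an edgeR adjusted p under 0.05 (median 0.05).

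Iron and redox genes gave a further small pattern. Of 20 tested genes of NRF2 and iron 5 rose and 4 fell. Hmox1, which breaks down heme, rose by 0.34 ± 0.04 on the log2 scale, the iron exporter Slc40a1 by 0.31 ± 0.04 and the transferrin receptor Tfrc by 0.46 ± 0.05. Keap1, the inhibitor of NRF2, fell by 0.31 ± 0.05 on the log2 scale, and Nfe2l2, which encodes NRF2, was at -0.02 and not called. The 4 falls were 2 without saringosterol replicate 2 or any vehicle replicate.

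Signalling from pattern receptors and transcription factors was mixed. Of 18 tested Toll-like receptors and adaptors 6 fell and 1 rose. Cd14, the coreceptor for lipopolysaccharide, had 583, 587 and 586 CPM in saringosterol libraries, against 832, 865 and 892 CPM in vehicle libraries (log2 fold change -0.56 ± 0.04), the adaptor Myd88 fell by 0.27 ± 0.05 and Tlr2 rose by 0.23 ± 0.05. Of 22 genes of NF-kappaB and its feedback 2 rose and 3 fell. Nfkbiz, a nuclear coactivator of late inflammatory genes, had 6.07, 6.30 and 6.11 CPM against 11.2, 10.0 and 9.82 CPM (log2 fold change -0.75 ± 0.11), and the inhibitor Tnfaip3 rose by 0.47 ± 0.05. Of 22 immediate early genes 4 rose and 7 fell, with Fos lower by 0.50 on the log2 scale, and the phosphatase Dusp6 and the growth factor gene Myc higher by 0.54 and 0.39. Of 27 myeloid transcription factors 3 rose and 10 fell, among them Id2, an inhibitor of differentiation, higher by 0.43 on the log2 scale and Cebpd lower by 0.40; the rises were 5 without saringosterol replicate 3. Of 24 genes of p53, arrest and apoptosis 2 rose and 6 fell. The arrest gene Cdkn1a fell by 0.33 ± 0.04 on the log2 scale, the death gene Bbc3 by 0.53 ± 0.07, and the survival gene Bcl2l1 rose by 0.23 ± 0.04.

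In the remaining lists, of the cell surface and of general cell functions, members not called outnumbered those called, except among colony stimulating factors and receptors. With all libraries in the fit, the share called in each was above the 10.8% of all genes tested. That is no result about these lists, which were chosen with earlier results of these data known. Several of the counts fell when 1 library was left out. Of 25 adhesion genes 2 rose and 6 fell, with the integrin chains Itga4 higher by 0.44 on the log2 scale and Itgal lower by 0.62. Of 26 genes of matrix and proteases 2 rose and 8 fell, or 5 without vehicle replicate 3; thrombospondin, Thbs1, fell by 0.86 ± 0.16 on the log2 scale and the gelatinase Mmp9 by 0.29 ± 0.04. Of 25 genes of purinergic signalling and ion channels 2 rose, led by the potassium channel Kcnj10 (log2 fold change 0.63 ± 0.08), and 7 fell, or 4 without saringosterol replicate 3 or vehicle replicate 3. Of 29 cytoskeleton genes 6 rose and 2 fell, and 2 rises were called without saringosterol replicate 2 or vehicle replicate 2. Of 36 lysosomal genes 3 rose and 4 fell, with the protease Ctsc lower by 0.31 on the log2 scale; the rises were 6 and 5 without saringosterol replicate 3 and vehicle replicate 3. Of 20 autophagy genes 4 fell, or 1 to 2 without saringosterol replicate 2 or 3 or vehicle replicate 2 or 3, and the receptor Sqstm1 fell by 0.17 ± 0.03 on the log2 scale. Of 24 genes of sugar breakdown 1 rose and 4 fell, or 2 without vehicle replicate 3. Of 13 hypoxia genes 3 rose, of which Vegfa alone was called without vehicle replicate 2 or 3 or any saringosterol replicate. Among 17 genes of TGF-beta signalling 3 fell, or 1 without saringosterol replicate 2 or vehicle replicate 1, with the coreceptor Eng lower by 0.47 on the log2 scale. The transglutaminase Tgm2, one of 2 that rose and 2 that fell among 12 genes of alternative activation, rose by 0.70 ± 0.07 on the log2 scale. Of 7 colony stimulating factors and receptors 4 fell, or 2 without saringosterol replicate 3 or vehicle replicate 3, and of 12 metallothioneins and zinc transporters 2 rose.

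**Figure D3:**
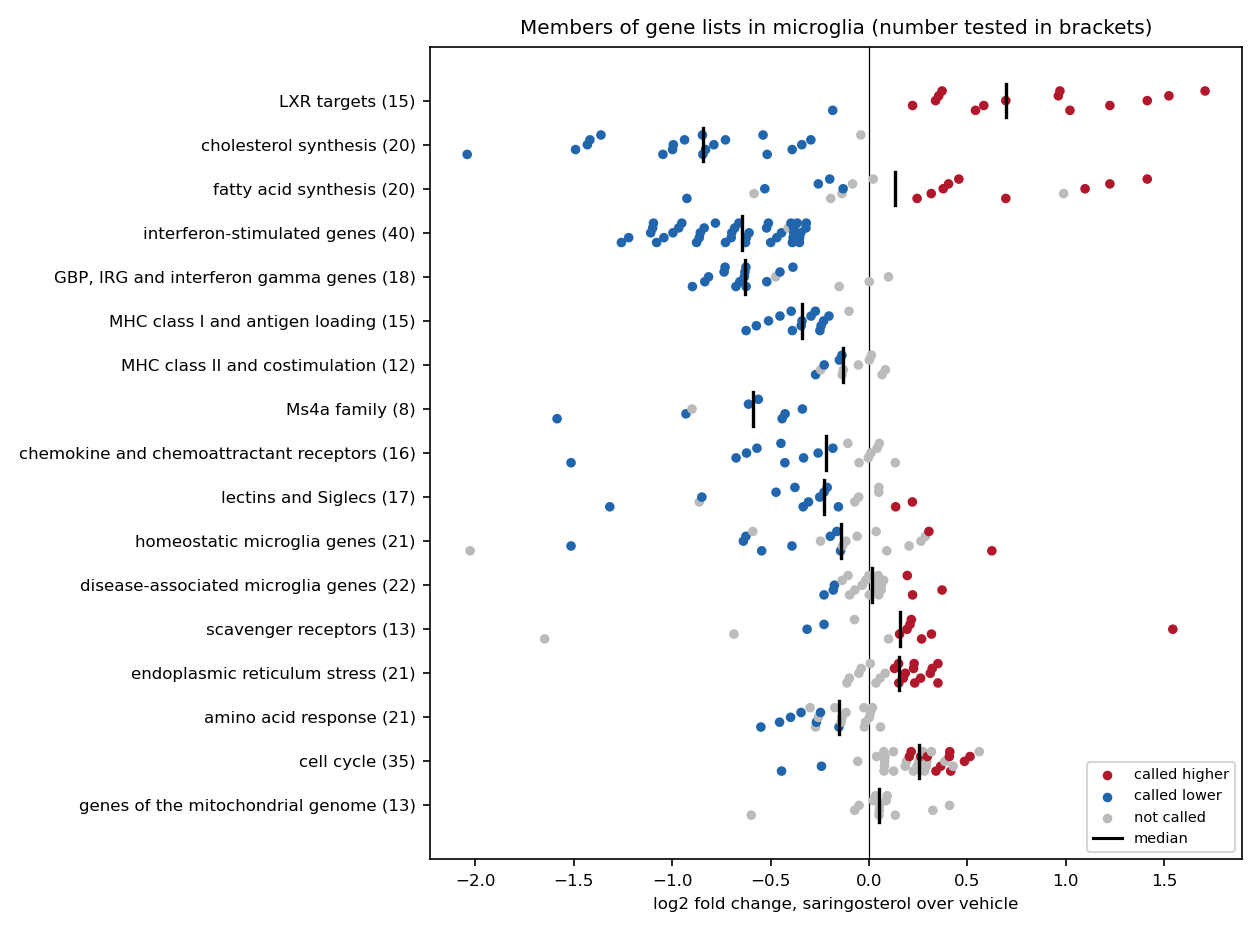
Log2 fold change, saringosterol over vehicle, of the tested members of 17 gene lists in microglia; each point is 1 gene, coloured by whether it was called higher (red), lower (blue) or not called (grey), and the bar marks the list's median. LXR targets lie to the right with the exception of Smpdl3a, and cholesterol synthesis, interferon-stimulated, MHC class I and Ms4a genes lie to the left.

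**Figure D4:**
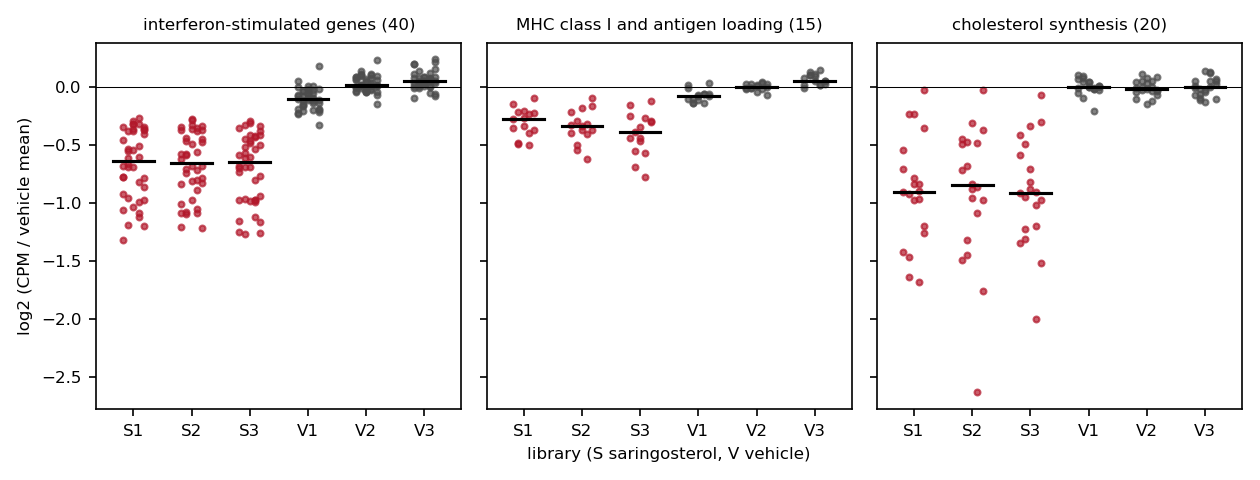
Members of 3 gene lists in each microglia library as log2 of the CPM over the mean of the 3 vehicle libraries; each point is 1 gene and the bar is the list's median in that library. The medians of the interferon-stimulated list are -0.64, -0.65 and -0.65 in the saringosterol libraries S1 to S3 and -0.10, 0.02 and 0.05 in the vehicle libraries V1 to V3.

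Whether the response of microglia differed from that of BMDM was tested as the difference between the 2 responses in 1 fit of 18 libraries. Of 16965 genes tested 385 (2.27%) were called, 132 with the more positive response in microglia (0.778%) and 253 with the more negative one (1.49%). None of the 15 LXR targets was called different, with medians of 0.69 in microglia and 0.87 in BMDM, and 1 of 20 cholesterol synthesis genes was, with medians of -0.85 in microglia and -1.16 in BMDM. That gene was Hmgcs1, with log2 fold changes of -0.84 in microglia and -1.18 in BMDM (difference 0.34 ± 0.09, edgeR adjusted p = 0.047); the call was lost without 10 of the 12 libraries in turn (adjusted p = 0.05 to 0.15). A p that misses the threshold does not show that the responses are equal. BMDM saringosterol replicate 3 stood apart from its group in interferon genes: with it the interferon-stimulated list had a median of -0.10 in BMDM and without it -1.02, beside -0.65 in microglia, and 0 and 4 of 40 genes were called different. Without that library 6 cholesterol synthesis genes were called different in place of 1, and the 6 were less negative in microglia.

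Genes of the amino acid response differed between the cell types. Of 21 tested genes 8 had a more negative response in microglia and none a more positive one, with medians of -0.16 in microglia and 0.47 in BMDM; without BMDM saringosterol replicate 3 the count was 9 and the BMDM median 0.35. Phgdh, the first enzyme of serine synthesis, averaged 26.7 ± 2.99 CPM with saringosterol and 29.6 ± 1.85 CPM with vehicle in microglia (SD, n = 3 each), and 8.54 ± 3.51 CPM with saringosterol and 2.17 ± 0.622 CPM with vehicle in BMDM, a difference of -2.13 ± 0.37 (edgeR adjusted p = 0.01, and 5.5e-05 without that library). Trib3 stood at -0.56 in microglia and 0.87 in BMDM (difference -1.43 ± 0.22, adjusted p = 0.0017), Asns at -0.25 in microglia and 1.11 in BMDM (difference -1.37 ± 0.23, adjusted p = 0.0079), and Atf4 at -0.14 in microglia and 0.58 in BMDM (difference -0.72 ± 0.09, adjusted p = 1.2e-05). MHC class II went the other way, with 4 of 12 genes more positive in microglia and medians of -0.14 in microglia and -0.50 in BMDM, or 6 more positive and 1 more negative without BMDM saringosterol replicate 3. The antigen-presenting chain H2-Aa stood at 0.07 in microglia and -0.60 in BMDM (difference 0.68 ± 0.11, adjusted p = 0.0015). For the droplet coat gene Plin2 the log2 fold change was -0.76 in microglia and 0.23 in BMDM (difference -0.98 ± 0.06, adjusted p = 2.7e-11). The count of 385 was 204 to 677 without each of the 12 saringosterol and vehicle libraries in turn, and was over 1.5 times away without microglia saringosterol replicate 3 (211), microglia vehicle replicate 3 (204), BMDM saringosterol replicate 1 (677), BMDM vehicle replicate 2 (236) or BMDM vehicle replicate 3 (663).

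**Figure D5:**
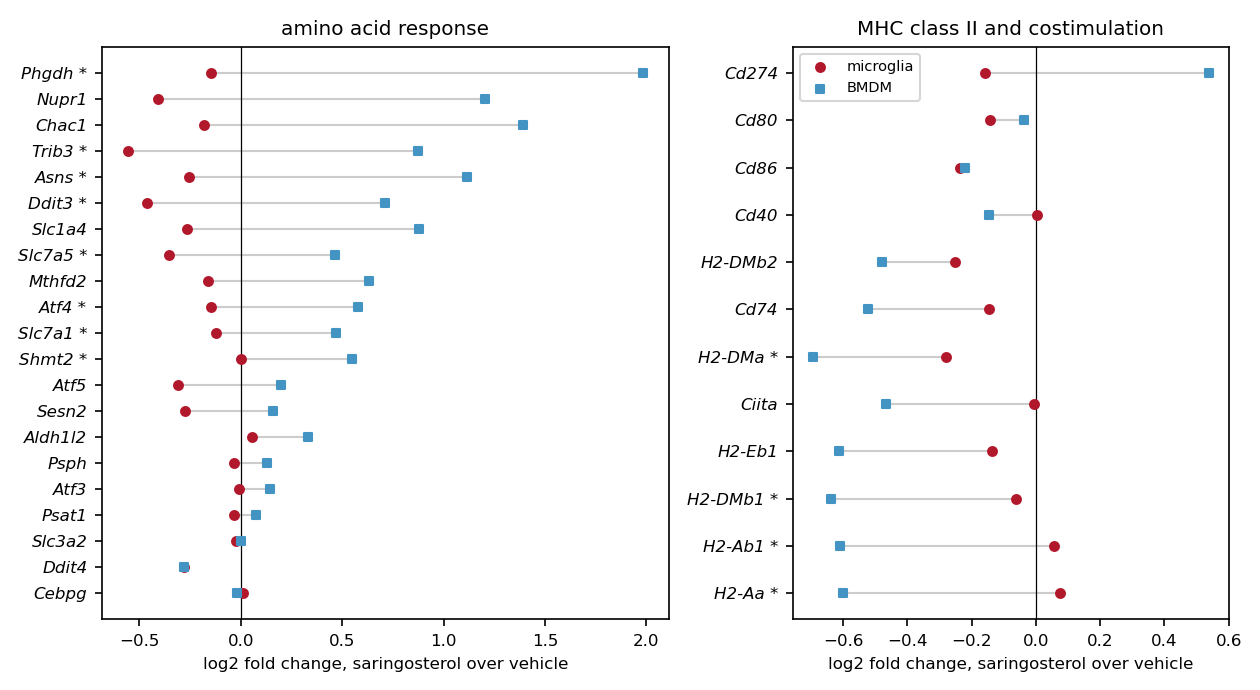
Log2 fold change, saringosterol over vehicle, of amino acid response genes and of MHC class II genes in microglia (red circles) and BMDM (blue squares), from 1 fit of 18 libraries; an asterisk marks genes whose difference between cell types was called. Most amino acid response genes lie further left in microglia than in BMDM, and the class II chains lie near 0 in microglia and left of it in BMDM.

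Microglia given 1 µM GW shared the vehicle libraries with the comparison above and had another dose, so the values stand side by side without a comparison of the compounds. Against vehicle, 13.4% of genes were called higher and 15.2% lower with GW. All 15 LXR targets were called higher with GW (median 1.54, beside 0.70 with 10 µM saringosterol), with Abca1 at 2.16 and Scd2 at 2.68. All 20 cholesterol synthesis genes were called higher with GW (median 0.99), where 19 were lower with saringosterol: Cyp51 stood at -1.42 with saringosterol and at 1.54 with GW. Interferon-stimulated genes were lower with GW in 40 of 40 cases (median -1.0, beside -0.64 with saringosterol). Cx3cr1 stood at -1.51 with saringosterol and -0.35 with GW, and Ccl2 at 0.47 with saringosterol and -1.16 with GW.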

How the data were processed

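RNA of cultured mouse cells was made into libraries with an oligo-dT based kit, per the labels' protocols. The submitters' processing notes name bcl2fastq, STAR 2.5.1a, Subread featureCounts 1.4.6-p5 and the build GRCm38. They give no annotation release, strand setting or rule for multiply fitting reads, so overlapping and antisense genes cannot be told apart. The authors deposited whole-number counts per gene, with CPM (scaled to the library's total) and TPM (scaled to gene length and total) beside them. Deposited CPM differed from the counts by at most 5.1e-11, and TPM entered no test.

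Of 55487 gene identifiers, 168 stand on several lines and were used once. Counts were scaled by edgeR's TMM method (edgeR 4.0.16, R 4.3.3), low genes were removed with filterByExpr, and the 9 microglia libraries, GW included for the estimate of spread, were fitted with edgeR's robust quasi-likelihood F test. Genes were called at a Benjamini-Hochberg adjusted p under 0.05 over all 16065 genes tested. Each standard error was derived from the test, as the absolute log2 fold change over the square root of its F statistic. CPM values of genes are per TMM-scaled library size; sums over marker lists are per plain total. The difference from BMDM is an interaction term over 18 libraries. The fit was run on simulated counts with known changes. These were drawn with 1 dispersion for all genes, so the run does not test genes that vary more. Alternatives were DESeq2 1.42.0, limma-voom (limma 3.58.1), relative log expression scaling, a filter at 1 CPM in 3 libraries, no filter, a fit of 6 or 27 libraries, a replicate block and leaving out each library.

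The comparison and the 50 gene and 12 marker lists were chosen with earlier results of these data known, so no p-value is given for a list. Named genes are the 10 largest rises and falls with at least 1 CPM in the higher group and no overlap between groups, the 6 of smallest p each way, and members of the lists, given after their list's counts; 1 predicted gene among the largest falls was passed over. Some genes that this rule names are not reported here. For the difference from BMDM they are the 5 largest each way and genes named already.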

Additional observations from a re-analysis of the deposited data

Results flagged for a closer look

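The responses of microglia and BMDM to saringosterol were called different in 385 genes, by the interaction test in edgeR over 18 libraries; each difference below is the log2 fold change in microglia minus that in BMDM. The 5 largest positive and 5 largest negative differences came mostly from genes of low level, and 8 of these 10 genes averaged under 1 CPM in BMDM given vehicle. Kif21a, a kinesin, averaged 1.59 ± 0.200 CPM with saringosterol and 0.957 ± 0.363 CPM with vehicle in microglia, and was at 0 in all 3 BMDM libraries with saringosterol and at 0.110 ± 0.0557 CPM with vehicle (SD, n = 3 each). Its fitted difference of 5.84 depends on the prior count and is no bound on a fold (adjusted p = 0.015). Asb4, a ubiquitin ligase subunit, averaged 1.56 ± 0.469 CPM with saringosterol and 1.87 ± 0.0120 CPM with vehicle in microglia, and 0.192 ± 0.0919 CPM with saringosterol and 0 in all vehicle libraries in BMDM, and its -6.15 is likewise no bound (adjusted p = 0.012). Prox1, a homeobox factor, differed by 2.93 (adjusted p = 0.027, and 0.094 without BMDM saringosterol replicate 3). Rcor2, a corepressor, differed by 2.26, Bex1 by 1.54 and the pseudogene Rpl27-ps3, whose reads may belong to other copies, by 1.44.

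The chemokine Ccl7 averaged 35.4 ± 1.32 CPM with saringosterol and 32.0 ± 4.07 CPM with vehicle in microglia, and 1.39 ± 0.821 CPM with saringosterol and 0.106 ± 0.110 CPM with vehicle in BMDM (difference -3.50, adjusted p = 0.0064). Soat2, which esterifies cholesterol, averaged 4.17 ± 0.651 CPM with saringosterol and 7.22 ± 0.817 CPM with vehicle in microglia, and 0.979 ± 0.562 CPM with saringosterol and 0.203 ± 0.0985 CPM with vehicle in BMDM (difference -3.05, adjusted p = 0.0002). The water and glycerol channel Aqp9 differed by -2.40 and Lbp, which was called higher in microglia, by -2.25 (adjusted p = 0.0072 and 0.0012). Among genes named for their response in microglia, the difference was 1.305 for Ccdc148, 0.95 for Lipn, 0.34 for Hmgcs1 and -0.98 for Plin2.

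Amino acid response genes had the more negative response in microglia: the difference was -2.13 for Phgdh, -1.43 for Trib3, -1.37 for Asns, -1.17 for Ddit3, -0.82 and -0.59 for the amino acid transporters Slc7a5 and Slc7a1, -0.72 for Atf4 and -0.55 for Shmt2, a mitochondrial enzyme of serine breakdown. The MHC class II genes H2-Aa, H2-Ab1, H2-DMb1 and H2-DMa had the more positive one, by 0.68, 0.67, 0.57 and 0.42. Of these 26 genes 15 were called in every alternative, and the other 11, Bex1, Ccdc148, Ddit3, H2-Ab1, Hmgcs1, Lipn, Prox1, Rcor2, Rpl27-ps3, Slc7a1 and Slc7a5, lost the call in at least 1.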

How the results depend on the processing

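None of 420 genes named or called in a list changed direction, which is no further result, since nearly all were chosen for being called. Of the 420 genes, 162 had the same call in every setting. The call was lost by 245 in the fit of all 27 libraries, where 690 genes were called (357 higher and 333 lower). In that fit 3 interferon-stimulated genes, 0 genes of the guanylate-binding list, 2 of MHC class I, 3 homeostatic and 1 Ms4a gene were called lower, and 2 cell cycle genes higher. Without each library in turn 450 to 622 genes were called higher and 681 to 1009 lower, the lowest without vehicle replicate 3, and 6 to 9 cell cycle genes were higher. The count of 385 genes that differed from BMDM was 659 with DESeq2 and 204 to 677 without each library. Of 57 list counts 15 were within 1.5 times the reported one in every setting.

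With the replicate block 1450 genes were called (542 higher and 908 lower), and 420 differed from BMDM. Same-numbered libraries did not deviate together (correlations -0.087, -0.018 and -0.148), and the labels give them only a shared number. With the block 14 LXR targets were higher, and 19 cholesterol synthesis and 38 interferon-stimulated genes lower; 8 cell cycle genes were higher.

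Differences in marker sums near 0 changed sign without 1 library: the range over the 6 libraries left out in turn was -0.399 to 0.219 CPM for lymphocyte markers (sign changed at 0.0144 and 0.219), -0.357 to 0.376 CPM for fibroblast and mural markers (sign changed at -0.0551, -0.0414 and -0.357), -0.0150 to 0.0526 CPM for ependymal markers (sign changed at -0.0150 and -0.00323) and -0.0439 to 0.00818 CPM for hepatocyte markers. With 3 libraries a group, the exact tests of these sums cannot reach 0.05. Depth limits genes near the floor of 3 counts; origin of the replicates, strand setting and multiply fitting reads limit the rest.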

Other observations

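Of the 1743 called genes 1344 were in none of the lists. The genes that follow were chosen after their values were seen. Among those higher with saringosterol, Cd38, an enzyme that consumes NAD, averaged 132 ± 6.84 CPM in saringosterol libraries, against 59.0 ± 1.36 CPM in vehicle libraries (SD, n = 3 each; log2 fold change 1.17 ± 0.05, edgeR adjusted p = 3e-16). Stab2, a scavenger receptor for hyaluronan, averaged 11.7 ± 0.970 CPM against 4.30 ± 0.878 CPM in vehicle libraries (log2 fold change 1.44 ± 0.12), and Car2, a carbonic anhydrase, 22.4 ± 1.62 CPM against 9.35 ± 1.09 CPM (1.26 ± 0.10). Sgms2, a sphingomyelin synthase, averaged 7.81 ± 0.932 CPM against 3.26 ± 0.630 CPM in vehicle libraries, and Tmem86a, a lysoplasmalogen hydrolase, 189.8 ± 5.87 CPM against 118 ± 7.65 CPM. Rnf145, a ubiquitin ligase of the endoplasmic reticulum that senses sterols, averaged 68.1 ± 2.23 CPM in saringosterol libraries, against 45.0 ± 1.51 CPM in vehicle libraries (log2 fold change 0.60 ± 0.05). The groups did not overlap in any of these genes, which is no further result for genes that were called and chosen by their values.

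Among those lower with saringosterol were further genes known to respond to interferon. Slfn1 averaged 11.6 ± 0.304 CPM in saringosterol libraries, against 29.6 ± 4.19 CPM in vehicle libraries (log2 fold change -1.35 ± 0.17, edgeR adjusted p = 0.00027), and the membrane protein gene Ly6e 476 ± 24.97 CPM against 774 ± 68.04 CPM (-0.70 ± 0.10). Samd9l and Herc6 fell by 0.62 ± 0.07 and 0.63 ± 0.08 on the log2 scale. Cd72, a receptor best known from B cells, averaged 235 ± 7.38 CPM in saringosterol libraries, against 373 ± 23.8 CPM in vehicle libraries (log2 fold change -0.67 ± 0.05), the proteoglycan Gpc1 65.8 ± 3.06 CPM against 116 ± 1.47 CPM (-0.81 ± 0.06), and Hcar2, the receptor for niacin and ketone bodies, 13.5 ± 0.448 CPM against 23.03 ± 1.29 CPM (-0.77 ± 0.09). In the fit of all 27 libraries Slfn1, Ly6e, Samd9l and Hcar2 were no longer called.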
